A study of Mus musculus with 6 samples.

Results

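The genes described are 8 transcripts of neutrophil granules and of the S100 protein family, namely S100a8, S100a9, Camp, Ngp, Ltf, Lcn2, Mpo and Elane, out of 12393 genes measured. They were chosen by symbol in the array's probe annotation, and all 8 had a probe set, exactly 1 each. They were followed in RNA of CD11c-positive, flow-sorted conventional dendritic cells (DCs), the antigen-presenting cells that carry the integrin CD11c, from BALB/c mice, an inbred laboratory strain. The RNA was measured on 6 Affymetrix 3′ microarrays, 3 labelled spleen and 3 labelled lymph node, numbered 1 to 3 in each group. The labels give no treatment or mutation for either group, and age, sex and any pooling of animals are not given in the sources used here. Nothing in the labels ties the arrays to separate mice, and the p-values therefore reflect array-to-array spread that could be technical. Values are log2 of the deposited intensity unless a sentence says otherwise, and a negative difference means a lower level in arrays labelled spleen than in arrays labelled lymph node.

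Neutrophils fill their granules in the bone marrow in steps. Myeloperoxidase (Mpo) and elastase (Elane) are packed into azurophil granules at an early precursor stage. Lactoferrin (Ltf), lipocalin 2 (Lcn2), the cathelicidin precursor (Camp) and the neutrophilic granule protein (Ngp) follow in specific granules at a later stage. S100a8 and S100a9 pair to form calprotectin, a calcium- and metal-binding complex that fills the cytosol of mature neutrophils and is also made by monocytes. Conventional DCs are not known for granule proteins, and RNA from sorted cells can hold transcripts of other cells.

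The arrays were alike in scale, with medians of 39.4 to 41.3 intensity units, and 3 arrays per group limited the precision. The DC markers Itgax, Flt3 and Zbtb46 lay between 7.13 and 10.97 on every array. The chemokine gene Ccl22, the migration receptor gene Ccr7 and the fascin gene Fscn1, textbook genes of DCs that reach lymph nodes from tissues, were higher in arrays labelled spleen. Their differences were 4.97, 1.47 and 1.82 (limma adjusted p = 7.93e-05, 0.0496 and 0.00946), which goes against the labels, so the groups are called by their labels throughout. Every direction given here, the rank of S100a9 included, holds only if these labels do and would turn if they were exchanged. The 24 bacterial poly-A control probe sets averaged 8.83 in arrays labelled spleen and 7.72 in arrays labelled lymph node. Their part in the results below was not tested beyond a fit with that level as a covariate. By array the level was 8.41 to 9.06 in arrays labelled spleen and 7.39 to 7.96 in arrays labelled lymph node, without overlap. That fit can therefore hardly separate the control level from the group, and a call lost in it says little about a single gene. In bulk RNA of this kind, fewer cells of a type and less RNA per cell cannot be told apart.

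A group mean under 4 is called near background here. The TrpnX control, a transcript without a target in the sample, lay between 1.63 and 2.77 on all arrays. A list of 23 genes of other tissues, among them Alb of liver and Prm1 of sperm, had array values with a median of 3.82. These values ran from 1.72 up to 6.56 for 22 of the 23, while the cardiac troponin gene Tnnt2 reached 8.61 in arrays labelled spleen (difference 2.80 ± 0.38 SE, limma adjusted p = 0.0127). Values somewhat above 4 are therefore no proof that a transcript was present. By the limit of 4, Lcn2, Mpo and Elane were near background in both groups, as were 30.2% of all genes. S100a8, Camp, Ngp and Ltf were near background in arrays labelled spleen alone. S100a9 was near background in neither group.

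**Figure D1:**
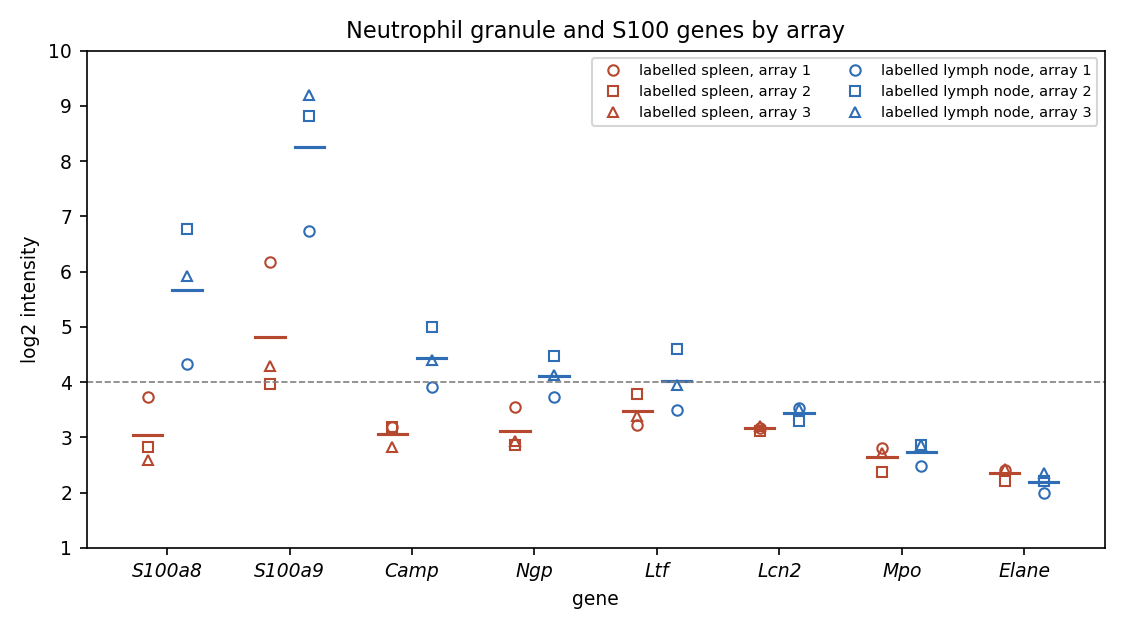
Log2 intensity of the 8 genes on each of the 6 arrays, with arrays labelled spleen on the left of each pair, arrays labelled lymph node on the right, a bar at each group mean and a dashed line at 4, the limit for near background. S100a9 lies between 3.96 and 6.18 in arrays labelled spleen and between 6.73 and 9.20 in arrays labelled lymph node, while Mpo and Elane stay under 3 on all 6 arrays.

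S100a9 had the largest difference of the 8 genes. Its intensity on the linear scale was 72.3, 15.6 and 19.6 units in arrays 1 to 3 labelled spleen, against 106.2, 453.9 and 587.6 units in arrays 1 to 3 labelled lymph node. The groups did not overlap, but spleen array 1 and lymph node array 1 lay only 0.55 log2 units apart. On the log2 scale the means were 4.81 ± 1.19 in arrays labelled spleen and 8.25 ± 1.33 in arrays labelled lymph node (SD, n = 3 each). That is a difference of -3.44 ± 0.76 (SE; 95% interval -5.19 to -1.69), or 10.9-fold lower in arrays labelled spleen. The size of this fold is uncertain, since the values in arrays labelled spleen lay within the range of the genes of other tissues, and with log2 of the value plus 16 the difference was -2.82 (limma adjusted p = 0.101). On the plain log2 scale the S100a9 difference was the most negative of all 12393 genes, and yet it did not pass (limma, Benjamini-Hochberg adjusted p = 0.0536). The within-group SD of S100a9, 1.26 log2 units, was larger than that of 99.6% of all genes.

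S100a8, which encodes the partner chain of calprotectin, had the same order of groups at lower signal. Its linear intensity was 13.3, 7.1 and 6.0 units in arrays 1 to 3 labelled spleen, against 20.0, 109.1 and 61.0 units in arrays 1 to 3 labelled lymph node. Here too the highest array labelled spleen and the lowest labelled lymph node were the arrays numbered 1, and the groups did not overlap. The log2 means were 3.05 ± 0.61 in arrays labelled spleen and 5.67 ± 1.24 in arrays labelled lymph node (SD, n = 3 each). The difference of -2.63 ± 0.59 (SE; 95% interval -4.00 to -1.25) ranked 7 among the most negative of all genes and did not pass (limma adjusted p = 0.0569). Because the mean in arrays labelled spleen was near background, the 6.17-fold ratio is uncertain in size. The suffix _s_at of its probe set marks a design whose probes can match transcripts of more than 1 gene.

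**Figure D2:**
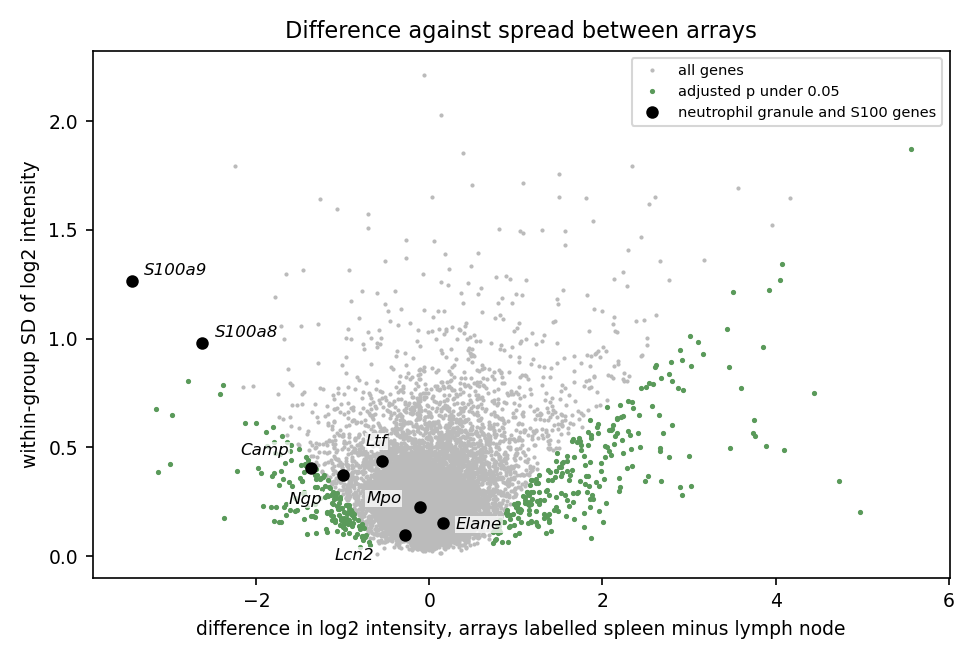
Difference between group means (horizontal, log2 units, arrays labelled spleen minus lymph node) against the within-group SD (vertical, log2 units) for all 12393 genes, with genes past an adjusted p of 0.05 in green and the 8 neutrophil granule and S100 genes in black. S100a9, at -3.44 with an SD of 1.26, and S100a8, at -2.63 with an SD of 0.98, stand at the far left and high, while Camp, at -1.37 with an SD of 0.41, lies among the genes that passed.

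The call on S100a8 depended on 1 array. Without lymph node array 1, the difference of S100a8 was -3.30 and passed (limma adjusted p = 0.0444). Leaving out any other array gave adjusted p-values up to 0.174 for S100a8, and no single omission brought S100a9 past the threshold (0.0574 to 0.204). With genes whose mean over the 6 arrays was under the median left out, S100a9 had a limma adjusted p of 0.0383. It was kept by that filter only through its high values in arrays labelled lymph node, so this value is no support for the difference. With log2 of the value plus 16 the difference of S100a8 shrank to -1.51, and with the poly-A control level as a covariate the differences were -4.44 for S100a8 and -6.69 for S100a9, neither past the threshold (adjusted p = 0.880 and 0.831). Lymph node array 3, the highest for S100a9 in its group, also held the highest level of Slc40a1, an iron exporter of red pulp macrophages of the spleen. That gene lay at 3.66, 3.39 and 3.34 in arrays labelled spleen and at 3.43, 3.34 and 7.39 in arrays labelled lymph node. Without lymph node array 3, the difference of S100a9 was -2.97 (limma adjusted p = 0.125), and without lymph node array 2 it was -3.15 (limma adjusted p = 0.204). S100a8, Camp, Ngp and Ltf were highest in the lymph node group on array 2, where Slc40a1 was low. Slc40a1 was named after its values were seen, and a link between it and S100a9 was not tested.

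S100a8 and S100a9 are neighbours on mouse chromosome 3, with start sites 26.6 kb apart in RefSeq assembly GRCm38.p6. As both had the same order of groups on these arrays, the 250 bases before each start site are shown from RefSeq on the strand of the gene, 5′ to 3′. Capitals mark matches, on either strand, to TTGCNNAA or TTNNGNAA, which resemble sites of the C/EBP factors of granulocyte development, and to GAGGAA, which resembles sites of the ETS family. S100a8 lies at chr3:90668821-90669070 on the plus strand and S100a9 at chr3:90695722-90695971 on the minus strand.
S100a8: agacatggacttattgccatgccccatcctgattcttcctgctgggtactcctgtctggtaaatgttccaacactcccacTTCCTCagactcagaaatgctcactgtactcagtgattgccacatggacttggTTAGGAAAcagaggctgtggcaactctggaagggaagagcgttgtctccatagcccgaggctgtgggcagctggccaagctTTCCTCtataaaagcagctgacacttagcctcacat
S100a9: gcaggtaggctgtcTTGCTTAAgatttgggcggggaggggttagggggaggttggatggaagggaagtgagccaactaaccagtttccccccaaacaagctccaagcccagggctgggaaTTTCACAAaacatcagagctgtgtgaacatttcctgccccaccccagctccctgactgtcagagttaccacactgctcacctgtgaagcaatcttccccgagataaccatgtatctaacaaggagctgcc
The S100a8 window held 1 match to TTNNGNAA and 2 to GAGGAA. The S100a9 window held 1 match to TTGCNNAA, 2 to TTNNGNAA and 0 to GAGGAA. By its letters, any match to TTGCNNAA is also a match to TTNNGNAA on the opposite strand, so the counts of these strings are not separate. Among 32841 promoter windows of this length, 9.57% held TTGCNNAA, 36.9% held TTNNGNAA and 23.3% held GAGGAA. All 8 genes had a window in the table, and these letter strings occurred in 4, 5 and 5 of them.

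Camp, which encodes the precursor of the antimicrobial peptide CRAMP, was the only gene of the 8 past the threshold. Its linear intensity was 9.1, 9.1 and 7.1 units in arrays 1 to 3 labelled spleen, against 15.1, 31.8 and 21.2 units in arrays 1 to 3 labelled lymph node. All arrays labelled spleen were lower than all arrays labelled lymph node. The log2 means were 3.07 ± 0.21 in arrays labelled spleen and 4.44 ± 0.54 in arrays labelled lymph node (SD, n = 3 each). Camp was thus 2.59-fold lower in arrays labelled spleen, a difference of -1.37 ± 0.28 (SE; limma adjusted p = 0.0425), with 97 genes showing a more negative one. These levels are within the range of the genes of other tissues, so the size of the fold is uncertain. The call was lost in each of the 6 fits that left out 1 array (adjusted p = 0.0665 to 0.132), with differences of -1.63 to -1.09, and the adjusted p of Camp ran from 0.0319 to 0.880 over 15 alternative fits. The call was also lost with log2 of the value plus 16 (difference -0.64, adjusted p = 0.101), with array weights (-1.24, adjusted p = 0.0747), in the fit on arrays 1 and 2 of each group (-1.27, 0.126) and with the poly-A control covariate (-1.69, 0.880).

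Ngp, a protein of mouse specific granules, followed Camp closely. Its linear intensity was 11.7, 7.3 and 7.6 units in arrays 1 to 3 labelled spleen, against 13.3, 22.2 and 17.6 units in arrays 1 to 3 labelled lymph node. The groups did not overlap, although spleen array 1 and lymph node array 1 were 0.18 log2 units apart. The difference was -1.0 ± 0.26 (SE; means 3.11 ± 0.38 in arrays labelled spleen and 4.11 ± 0.37 in arrays labelled lymph node, SD, n = 3 each), and it did not pass (limma adjusted p = 0.0843). With log2 of the value plus 16 the Ngp difference was -0.43, and with the poly-A covariate it was -1.77, again not past the threshold.

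Camp, Ngp and Ltf lie on chromosome 9, with start sites of Camp and Ngp 570.4 kb apart and those of Ngp and Ltf 599.5 kb apart. The windows of Camp, at chr9:109849457-109849706 on the minus strand, and of Ngp, at chr9:110419558-110419807 on the plus strand, are shown because Camp and Ngp had the largest differences among the granule genes of the 8. Capitals mark the same letter strings.
Camp: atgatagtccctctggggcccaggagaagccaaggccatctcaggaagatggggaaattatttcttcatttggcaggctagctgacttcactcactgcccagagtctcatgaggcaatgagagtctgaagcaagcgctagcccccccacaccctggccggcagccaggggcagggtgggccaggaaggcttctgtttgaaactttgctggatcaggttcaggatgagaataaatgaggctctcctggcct
Ngp: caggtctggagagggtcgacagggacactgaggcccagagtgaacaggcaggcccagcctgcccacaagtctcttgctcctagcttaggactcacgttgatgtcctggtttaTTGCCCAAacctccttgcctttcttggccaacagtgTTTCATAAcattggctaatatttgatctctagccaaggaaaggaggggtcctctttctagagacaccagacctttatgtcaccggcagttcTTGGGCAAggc
The Camp window held 0 matches to the 3 strings. The Ngp window held 2 matches to TTGCNNAA, which by their letters also match TTNNGNAA, a further match to TTNNGNAA and 0 to GAGGAA. No match says only that these letters are not in this window.

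Ltf and Lcn2, proteins of specific granules that withhold iron from microbes, did not pass the threshold. Ltf had a linear intensity of 9.4, 13.8 and 10.5 units in arrays 1 to 3 labelled spleen, against 11.3, 24.2 and 15.4 units in arrays 1 to 3 labelled lymph node. These groups overlapped, and the difference was -0.54 ± 0.29 (SE; 95% interval -1.23 to 0.14; limma adjusted p = 0.378). Lcn2, which binds bacterial siderophores, had 9.0, 8.7 and 9.2 units in arrays 1 to 3 labelled spleen, against 11.5, 9.8 and 11.4 units in arrays 1 to 3 labelled lymph node. Its groups did not overlap, but both were near background and the difference was only -0.28 ± 0.15 (SE; 95% interval -0.63 to 0.07; limma adjusted p = 0.380).

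The azurophil genes stayed near the bottom of the scale on every array. Mpo, whose enzyme makes hypochlorous acid, had 7.0, 5.2 and 6.6 units in arrays 1 to 3 labelled spleen, against 5.6, 7.3 and 7.3 units in arrays 1 to 3 labelled lymph node. Elane, the serine protease neutrophil elastase, had 5.3, 4.6 and 5.4 units in arrays 1 to 3 labelled spleen, against 4.0, 4.6 and 5.1 units in arrays 1 to 3 labelled lymph node. The groups overlapped for both genes. The difference was -0.10 ± 0.19 for Mpo (95% interval -0.55 to 0.34; limma adjusted p = 0.835) and 0.16 ± 0.17 for Elane (95% interval -0.22 to 0.55; limma adjusted p = 0.672; SE after each difference). At these levels a difference in either transcript was not detectable.

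**Figure D3:**
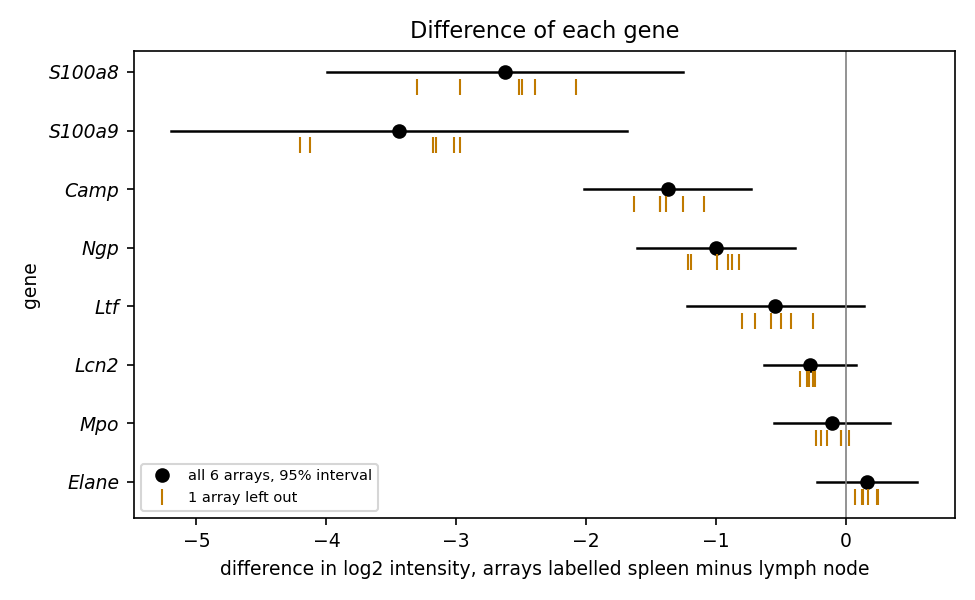
Difference in log2 intensity (arrays labelled spleen minus lymph node) of the 8 genes, with black points and lines for the limma estimate and its unadjusted 95% interval over all 6 arrays and orange ticks for the estimates with 1 array left out. The intervals of S100a8, S100a9, Camp and Ngp lie below 0 and those of Ltf, Lcn2, Mpo and Elane include it; the ticks for S100a9 run from -4.20 to -2.97.

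Taking the 8 genes as a list, 1 was lower and 0 were higher at an adjusted p of 0.05, where 3.4% of all genes passed in either direction, 1.37% were lower and 2.03% higher. At an unadjusted p of 0.05, 4 of the 8 were lower and 0 higher, beside 9.75% of all genes lower and 9.3% higher. The arrays labelled spleen were below all arrays labelled lymph node for 5 of the 8, S100a8, S100a9, Camp, Ngp and Lcn2, as they were for 12.7% of all genes. The median difference was -0.77, beside -0.0053 over all genes. Summed linear intensity of the 8 genes ran from 71.4 to 137.1 units in arrays labelled spleen and from 187 to 726.6 units in arrays labelled lymph node. S100a9 carried most of the sum in spleen array 1, at 72.3 of 137.1 units, and in all arrays labelled lymph node. It held 587.6 of 726.6 units in lymph node array 3. In spleen array 2, S100a9 held only 15.6 of 71.4 units, and its 19.6 units in spleen array 3 were likewise less than the rest. Within the lymph node group, array 1 was the lowest for 7 of the 8 genes, all but Lcn2, and it was the lowest for 29.3% of all genes. Array 2 labelled lymph node was the highest for S100a8, Camp, Ngp and Ltf, and array 3 for S100a9 and Elane. Within the spleen group, array 1 was the highest for S100a8, S100a9, Ngp and Mpo and tied with array 2 for Camp, and it was the highest for 31.2% of all genes.

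The pattern of these genes over the 6 arrays was compared with the mean log2 value of S100a8 and S100a9 by Pearson's r, as a description. Ngp reached an r of 0.985 and Camp 0.947, while Ltf reached 0.692, Mpo 0.646, Lcn2 0.639 and Elane -0.169. Among 214 other genes with an SD of at least 1 and a level above the median, the closest were Ube2e2 (0.894), Slc12a2 (0.889), Sash1 (0.867) and Adamdec1 (0.867). Ppp1r14a (0.850), Abcb1a (0.844), Acp5 (0.843) and Dtx1 (0.834) came next. All of these 8 were lower in arrays labelled spleen, with adjusted p-values of 0.00350 to 0.0354 in limma. The 6 points fall into 2 groups, so these values of r mostly reflect the group difference. As the 8 other genes were picked by that r, their direction and adjusted p-values are no separate result.

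Other granule genes were split in direction, with 13 differences below 0 and 14 above. Of 27 measured genes of azurophil, specific and gelatinase granules, 0 passed in either direction in limma (4 higher and 4 lower at an unadjusted p of 0.05), and the median difference was 0.033. Near background in both groups were 9 of the 27, which limits what their split can show. All arrays labelled spleen were lower than all arrays labelled lymph node for 5 of the 27, beside 12.7% of all genes. They were all higher for 2 of the 27, beside 11.8% of all genes. Prtn3 and Ctsg, azurophil proteases made alongside elastase, lay at 2.74 to 3.26 and 2.00 to 2.43 over all 6 arrays, near background. Cyba, a subunit of the phagocyte oxidase, differed by -1.08 ± 0.24 (SE; limma adjusted p = 0.0565), and Itgb2, the common beta chain of leukocyte integrins, by -0.66 ± 0.15 (adjusted p = 0.0616). The lysozyme gene Lyz2, made by neutrophils and macrophages alike, pointed the other way at 0.97 ± 0.30 (SE; adjusted p = 0.127). Cathepsin C, encoded by Ctsc, which activates the granule proteases, differed by 0.38 ± 0.20 (SE; adjusted p = 0.365).

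Other S100 genes were also split, with 4 differences below 0 and 7 above. Of 11 measured S100 genes besides S100a8 and S100a9, 0 passed in limma (1 higher and 2 lower at an unadjusted p of 0.05), and the median difference was 0.039. S100a4, at 10.36, 10.43 and 10.17 in arrays labelled spleen against 10.87, 10.93 and 10.77 in arrays labelled lymph node, differed by -0.54 ± 0.15 (SE; limma adjusted p = 0.109). S100a6 differed by -0.63 ± 0.19 (SE; adjusted p = 0.119). Both gene products are calcium-binding proteins of many cell types, and both signals were well above background on every array.

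**Figure D4:**
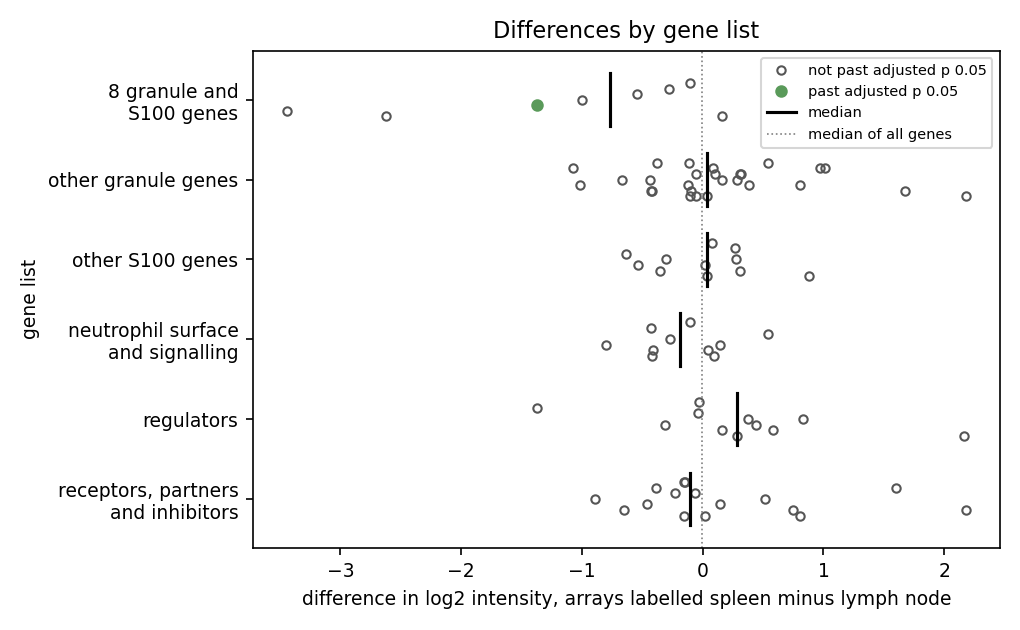
Differences in log2 intensity (arrays labelled spleen minus lymph node) of single genes in 6 gene lists, with filled green points for genes past an adjusted p of 0.05, a bar at each list's median and a dotted line at the median of all genes. The 8 granule and S100 genes have a median of -0.77 and the only green point, Camp, while the other granule genes and the other S100 genes spread around 0.

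Transcription factors that regulate granule genes, activators and repressors alike, were measured as well, but the C/EBP factor gene Cebpe was not analysed here. Of 11 such genes 0 passed in limma (1 higher and 1 lower at an unadjusted p of 0.05), with a median difference of 0.29. Spi1, which encodes PU.1, lay at 5.95, 6.82 and 6.60 in arrays labelled spleen against 7.85, 8.28 and 7.35 in arrays labelled lymph node. Its groups did not overlap, and the difference of -1.37 ± 0.30 (SE) did not pass (limma adjusted p = 0.0549). Myb, a factor of early precursors, differed by 2.16 ± 0.62 (SE; adjusted p = 0.109). Among 16 receptors, partners and inhibitors of the released proteins 0 passed in limma (3 higher and 2 lower at an unadjusted p of 0.05), with a median of -0.10. The endocytic receptor gene Lrp1, a receptor of lactoferrin, differed by -0.65 ± 0.15 (SE; adjusted p = 0.0611), and the scavenger receptor gene Cd36 by 1.60 ± 0.37 (adjusted p = 0.0633). Tlr4, listed here for its role as a receptor of calprotectin, differed by 0.02 ± 0.34 (adjusted p = 0.984).

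Neutrophil surface and signalling genes showed no group difference past the threshold. Of 10 measured surface and signalling genes 0 passed in limma (0 higher and 1 lower at an unadjusted p of 0.05, at which 9.75% of all genes were lower), and the median difference was -0.19. Their summed linear intensity ran from 169.1 to 520.9 units in arrays labelled spleen and from 264.4 to 465.3 units in arrays labelled lymph node, so the groups overlapped. Most of the highest sum in each group came from Il1r2, at 8.55 in spleen array 2 and 8.29 in lymph node array 1. Il1r2 lay at 5.09 in spleen array 3 and 6.09 in lymph node array 3, so these sums are not a level of the list as a whole. Cxcr2, the chemokine receptor of mature neutrophils, the collagenase gene Mmp8, Cd177, Trem1 and Clec4e had means near background in both groups. Csf3r, the receptor of the growth factor G-CSF, lay at 5.12, 4.66 and 4.61 in arrays labelled spleen and at 4.87, 5.0 and 5.75 in arrays labelled lymph node. The lectin gene Clec4d, at 3.35, 3.47 and 3.73 in arrays labelled spleen against 4.32, 4.04 and 4.58 in arrays labelled lymph node, had groups without overlap and differed by -0.80 ± 0.20 (SE; limma adjusted p = 0.0732). Trem1 differed by -0.42 ± 0.20 (SE; adjusted p = 0.313). Ly6g, Fpr1, Cxcr1 and Retnlg were not analysed here.

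**Figure D5:**
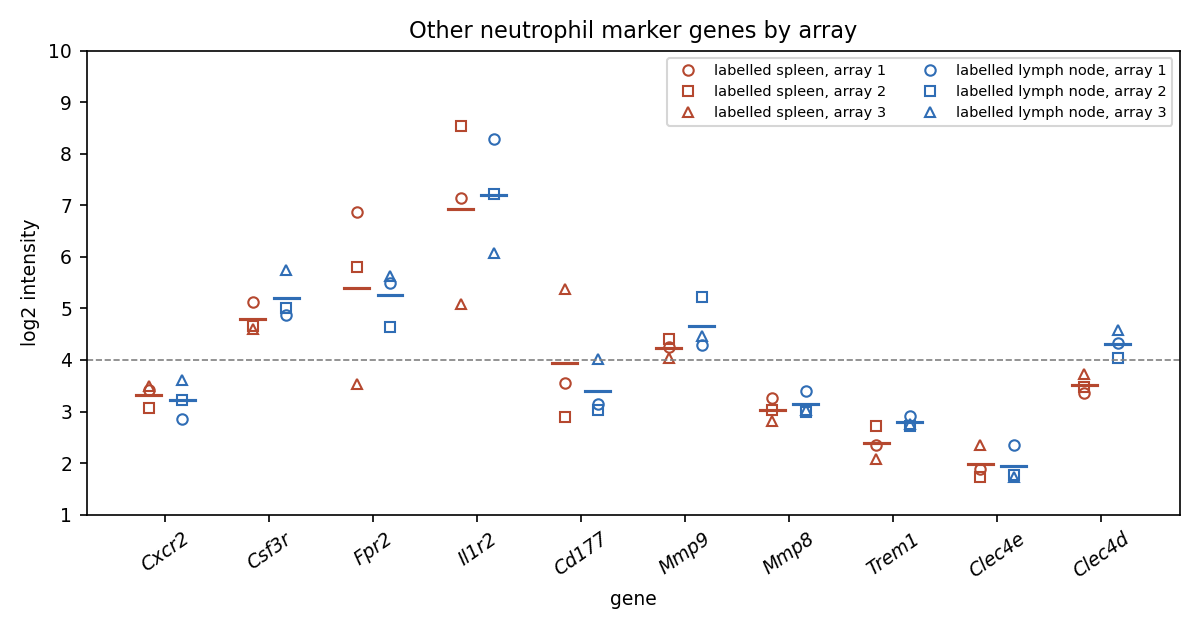
Log2 intensity of 10 other neutrophil marker genes on each array, with arrays labelled spleen on the left of each pair, arrays labelled lymph node on the right, a bar at each group mean and a dashed line at 4. Cxcr2, Mmp8, Trem1 and Clec4e lie below the line on all 6 arrays, and of the 10 genes Clec4d alone has groups that do not overlap.

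Markers of other cells were set beside the 8 genes. Of 12 monocyte genes 0 passed in limma (2 higher and 0 lower at an unadjusted p of 0.05). Their differences were split, with 7 below 0 and 5 above and a median of -0.10. Summed intensity of these 12 genes was 3749.5 to 4464 units in arrays labelled spleen and 3566.9 to 4085.1 units in arrays labelled lymph node. The monocyte chemokine receptor gene Ccr2 differed by 2.1 ± 0.51 (SE, limma adjusted p = 0.0681). F13a1, Vcan, Chil3, Cd14 and Ms4a3 of that list had means near background in both groups. Of 10 eosinophil, basophil and mast cell genes 0 passed in limma (0 higher and 2 lower at an unadjusted p of 0.05), and 8 were near background in both groups. The sum of that list was 252 to 439.3 units in arrays labelled spleen and 530.5 to 607.5 units in arrays labelled lymph node. Kit, a growth factor receptor gene that made up much of it, differed by -1.01 ± 0.28 (SE; adjusted p = 0.0953), and the eosinophil receptor gene Ccr3, near background in both groups, by -1.48 ± 0.64 (adjusted p = 0.26). The defining genes Prg2, Epx, Mcpt8 and Cpa3 were near background.

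Of 6 erythroid genes 1 was higher in arrays labelled spleen, the carbonic anhydrase gene Car2 at 2.30 ± 0.37 (SE; limma adjusted p = 0.0223), and 0 were lower. The erythropoietin receptor gene Epor differed by -0.33 ± 0.15 (SE; adjusted p = 0.297), and the globin gene Hba-a1 was near background in both groups. The summed intensity of these 6 was 549.3 to 805.1 units in arrays labelled spleen and 142.8 to 299.1 units in arrays labelled lymph node. Car2, at 9.53, 8.92 and 9.21 in arrays labelled spleen, carried most of the sums there. The other 5 genes all had differences below 0, so the sums follow Car2 and not the list. Of 10 red pulp macrophage genes 0 passed in limma (0 higher and 1 lower at an unadjusted p of 0.05), with sums of 273.2 to 381.5 units in arrays labelled spleen and 341.8 to 999.7 units in arrays labelled lymph node. Adgre1, which encodes a surface receptor of macrophages, differed by -1.17 ± 0.41 (SE; adjusted p = 0.174) and the complement gene C1qb by 1.30 ± 0.89 (adjusted p = 0.496). Differences in this list were below 0 for 9 genes and above 0 for 1, C1qb, with a median of -0.52. The sum of 999.7 units was that of lymph node array 3, the array highest for S100a9. All genes of the list but Adgre1 were highest in their group on that array. C1qb lay at 4.64, 3.19 and 7.28 in arrays 1 to 3 labelled lymph node, against 6.53, 5.86 and 6.63 in arrays labelled spleen. Of 10 plasmacytoid DC genes 3 were higher in arrays labelled spleen, Blnk at 3.60, Ccr9 at 2.79 and Klk1 at 4.06, and 0 were lower, with a median of 1.67 (limma adjusted p = 0.0119, 0.0385 and 0.0351). At an unadjusted p of 0.05, 7 of these 10 were higher and 0 lower. Of 12 conventional DC genes 3 were lower, Sirpa at -1.19, Ciita at -1.45 and Itgax at -0.97, and 0 were higher, with a median of -0.69 (limma adjusted p = 0.0121, 0.0196 and 0.0310). At an unadjusted p of 0.05, 9 of these 12 were lower and 1 higher, and in 11 of the 12 all arrays labelled spleen were below all arrays labelled lymph node. The part of these cells in the values of S100a8, S100a9, Camp and Ngp was not tested.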

How the data were processed

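Total RNA of sorted CD11c-positive DCs was amplified, per the labels' protocols, and measured on 6 Affymetrix arrays, 3 per group. The values deposited by the authors are probe set intensity, on a linear scale as judged from the values. RMA and limma are named without versions, per the submitters' processing notes, and any later scaling or floor is unknown. Precision is limited by the number of arrays.

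Groups came from the sample titles. The table held 22690 probe sets, 64 of them controls. Apart from controls, 20380 had 1 gene symbol, 691 had several and 1555 had none. For each of 12393 genes the probe set brightest on average across the 6 arrays was kept. The deposited intensity was transformed to log2, without a filter. Groups were compared by the moderated two-sided test of limma 3.58.1 under R 4.3.3, adjusted after Benjamini and Hochberg across the whole table at a threshold of 0.05. The limma function was tested on simulated data.

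The genes and lists were chosen with earlier results of these data known. Named are the 8 genes, in each list those past the threshold and the 2 with the smallest adjusted p, and the 8 genes most like S100a8 and S100a9. Defining markers near background, Csf3r, Il1r2, Slc40a1, Tlr4 and the genes of the label check were named besides, after their values were seen. The alternatives tried were a second quantile normalization, median centring, an offset of 16, the mean of all probe sets, a filter at the median level, trend and robust eBayes, array weights, a replicate block, arrays left out and a poly-A covariate. Promoter letters came from RefSeq (GRCm38.p6).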

Additional observations from a re-analysis of the deposited data

How the results depend on the processing

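The count of genes past the threshold, 421 with all arrays, was 764 with array weights in limma. It lay between 47 and 475 with 1 array left out, at 56 without lymph node array 1, 47 without lymph node array 2 and 130 without spleen array 1. With the poly-A control covariate, which leaves 3 residual degrees of freedom, it was 0 in limma (701 at an unadjusted p of 0.05). The count among the 8 genes, 1 with all arrays, was 0 with the offset of 16, array weights, both arrays numbered 3 left out or the poly-A covariate. In each of those 4 fits 4 of the 8 had an unadjusted p under 0.05, as had 2472, 2750, 2662 and 701 of all 12393 genes, in that order. With 1 array left out, 0 to 1 of the 8 passed. The 1 without lymph node array 1 was S100a8 and the 1 with the filter at the median level was S100a9, not Camp. That filter kept S100a9 alone of the 8, through its values in arrays labelled lymph node, so its call there is no support. S100a8, S100a9, Camp, Ngp, Ltf and Lcn2 kept a negative difference in all 15 or 16 alternative fits that measured them. Elane changed sign to -0.33 with the poly-A covariate, and Mpo ran from -0.23 to 0.025 with 1 array left out; neither passed. Deviations from the group mean correlated at 0.022, 0.24 and 0.16 between same-numbered arrays and at -0.28 to 0.13 between differently numbered ones. These values do not settle whether the numbers are pairs, and the main fit did not take them as such. With the replicate block 519 genes passed, Camp had an adjusted p of 0.0408, and S100a8 and S100a9 had 0.0756 and 0.0841. Low signal limits what can be said of Lcn2, Mpo and Elane.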
